A study of Homo sapiens with 6 samples.

Results

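The genes described are 10 components and direct regulators of mTORC1, the mechanistic target of rapamycin complex 1: MTOR, RPTOR, MLST8, DEPTOR, RHEB, TSC1, TSC2, EIF4EBP1, RPS6KB1 and AKT1S1. They were chosen by name, as 10 of the 58735 genes in the table, and all 10 passed the filter on low values with which 13585 genes were tested. RNA sequencing was carried out on MM.1S, an established human multiple myeloma cell line that grows as malignant plasma cells, in 3 Control libraries and 3 PRMT1 KD libraries. All 6 libraries came from cells transfected with siRNA at 100 nM and collected at 72 h. The Control cells received the negative control siRNA (si-NC), and the PRMT1 KD cells received siRNA against PRMT1, the main enzyme for asymmetric arginine methylation of proteins. The study asked which genes lie downstream of PRMT1 in myeloma cells. Its RNA sequencing used 1 cell line as the model and a transient knockdown that leaves part of the transcript. Other experiments of the study also used further myeloma lines, PRMT1 overexpression and PRMT1 knockout. The study's statistics section calls the replicates of its experiments biological and dependent, without naming the RNA sequencing. The labels do not say whether the libraries of a group came from separate cultures, so the p-values measure the spread between these libraries, which may be technical.

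mTORC1 is a kinase complex on the lysosome surface that couples cell growth to amino acids, energy and growth factors. Amino acids act through the Rag GTPases, which bring the complex to the lysosome, and growth factors act through AKT and the TSC complex, which keeps the small GTPase RHEB inactive until it is switched off. Active mTORC1 phosphorylates 4E-BP1 (EIF4EBP1) and S6 kinase (RPS6KB1) and so turns up translation of mRNA. Plasma cells make large amounts of secreted protein, and the mTOR inhibitor DEPTOR is known for high levels in a subset of multiple myelomas. The complex is controlled largely by phosphorylation and protein binding, which mRNA levels do not measure.

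The siRNA target sequences are shown because they define the treatment and because a short seed match can act on other mRNAs. The study lists 3 siRNAs against PRMT1, and which of them was used for RNA sequencing is not named in the sources used here. They are written below as the sense strand, 5′ to 3′, with capitals marking the 7 bases that pair with the seed of the guide strand.
Target of si-PRMT1-1: gcaactccatgTTTCATAa
Target of si-PRMT1-2: agacggtgttcTACATGGa
Target of si-PRMT1-3: ccatcgacctgGACTTCAa
The whole target of si-PRMT1-1 was found in 12 of 12 coding transcripts of PRMT1 in GENCODE 29, and those of si-PRMT1-2 and si-PRMT1-3 in 4 of 12 each. The capital letters were then looked for on the mRNA strand in the annotated 3′ UTRs of the tested genes. TTTCATA of si-PRMT1-1 occurred in 24.4% of 10073 genes with such a UTR, TACATGG of si-PRMT1-2 in 12.7% and GACTTCA of si-PRMT1-3 in 18.5%. A gene was counted if any of its annotated 3′ UTRs held the letters. RPS6KB1 held all 3, in 2, 1 and 2 of its 6 annotated 3′ UTRs. TSC2 held those of si-PRMT1-2 and si-PRMT1-3 (2 of 27 UTRs each). TSC1 held that of si-PRMT1-1 (10 of 27) and MLST8 held that of si-PRMT1-2 (5 of 14). RHEB, DEPTOR, EIF4EBP1, MTOR, RPTOR and AKT1S1 held none of these letters. A match is a description and not a tested site.

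PRMT1, the targeted gene, was lower in every PRMT1 KD library. Its level was 61.7, 62.8 and 58.9 FPKM (fragments scaled to gene length and library size) in the Control libraries, as compared with 13.3, 14.0 and 12.5 FPKM in the PRMT1 KD libraries. It fell by 2.13 on the log2(FPKM + 1) scale (SE 0.0552, limma adjusted p = 2.77e-05), leaving 21.7% of the Control mean. Each library held between 14439217 and 16465026 reads on genes, recovered from its FPKM values, and the libraries correlated by 0.98 to 0.984 within groups and by 0.974 to 0.979 between them. Plasma cell markers were high in all libraries, with TNFRSF17 at 255 to 318 FPKM, XBP1 at 258 to 292 FPKM and IRF4 at 115 to 118 FPKM. The markers of other cell types were at or near 0 for CD14, LYZ, CSF1R, CD2, MS4A1, COL1A1 and COL1A2 (0 to 0.112 FPKM), whereas the T cell gene CD3E (32.1 to 39.0 FPKM) and the epithelial gene KRT8 (19.5 to 23.1 FPKM) were detected beside low CD3D and EPCAM (at most 0.845 FPKM). In a bulk library, fewer cells of a type and less RNA per cell cannot be told apart.

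No member of the mTORC1 core passed the threshold after PRMT1 knockdown. With limma, 0 of 10 members had an adjusted p under 0.05, where 2.05% of all tested genes did (145 higher and 134 lower, or 51.97% higher). The majority of calls turned with the processing, at 62.2% higher after rescaling to TPM (transcripts per unit of library total), 44.9% with quantile normalization and 34.9% without a mean-variance trend in the fit. At an unadjusted p under 0.05 there were 3 members, RHEB, DEPTOR and EIF4EBP1, where 19.5% of all tested genes were under that value. In 4 of 10 members the Control and PRMT1 KD values did not overlap (DEPTOR and TSC1 higher, RHEB and MLST8 lower), beside 25.9% of all tested genes. With voom on the reads worked back, another test of the same libraries, 1 member (RHEB) passed beside 6.82% of all genes. The threshold was passed by the same gene alone among the members when testing was limited to genes with a mean of at least 5 FPKM, where 6.13% of 7710 genes passed. The median log2 fold change of the members was -0.06, with 4 higher and 6 lower, and that of all tested genes was 0.01. For scale, the smallest log2 change among the genes that passed was 0.22 in size, and the 95% interval of a tested gene reached a median of 0.20 to either side. For 3 libraries against 3, the smallest two-sided p that an exact permutation test can give is 0.1.

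**Figure D1:**
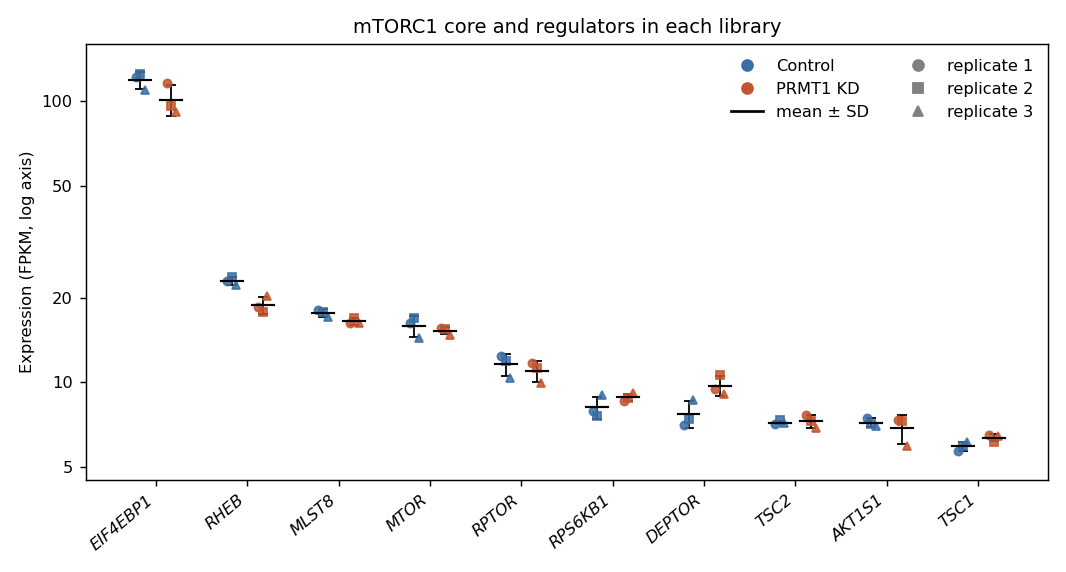
Level of each member (x axis, ordered by the Control mean) in FPKM on a log axis (y axis) in the 3 Control (blue) and 3 PRMT1 KD (orange) libraries, with a marker shape for each replicate number and the mean ± SD in black. All PRMT1 KD libraries lie below the Control libraries in RHEB and MLST8 and above them in DEPTOR and TSC1, while EIF4EBP1 stands far above the other members in both groups.

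The small GTPase RHEB, which binds and activates mTORC1, had the smallest p among the members. Its level was 22.9, 23.6 and 22.2 FPKM in the Control libraries, as compared with 18.6, 17.7 and 20.3 FPKM in the PRMT1 KD libraries. Every PRMT1 KD library was below every Control library, and the PRMT1 KD mean was 82.3% of the Control mean (18.9 ± 1.30 against 22.9 ± 0.740, SD, n = 3 each). The log2 difference was -0.27 (95% interval -0.41 to -0.13, limma adjusted p = 0.0755), and the exact permutation test gave p = 0.1. The values rest on 903 to 1348 reads per library, for which counting alone gives a coefficient of variation of 2.91%. RHEB (ENSG00000106615) lies at chr7:151466012-151520120 on the minus strand of hg38, and none of its exon bases are shared with another annotated gene. A processed pseudogene, RHEBP2, had 176 to 190 reads per Control library and 189 to 198 reads per PRMT1 KD library. Reads may be split between RHEB and RHEBP2, but their sequences were not compared. RHEBL1, the paralog of RHEB, ranged from 4.03 to 4.73 FPKM in the Control and from 3.61 to 5.34 FPKM in the PRMT1 KD libraries (log2 difference -0.03, limma adjusted p = 0.93).

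DEPTOR, which binds mTOR and inhibits it, had the largest positive difference among the members. Its level was 7.02, 7.43 and 8.65 FPKM in the Control libraries, as compared with 9.45, 10.6 and 9.06 FPKM in the PRMT1 KD libraries. All PRMT1 KD values were above all Control values, with Control 3 closest to them. The PRMT1 KD mean was 126% of the Control mean (9.71 ± 0.812 against 7.70 ± 0.849, SD, n = 3 each), a log2 difference of 0.30 (95% interval 0.09 to 0.51, limma adjusted p = 0.133, exact permutation p = 0.1). DEPTOR had the fewest reads of the members, 305 to 409 per library, for which counting alone gives a coefficient of variation of 5.26%. DEPTOR (ENSG00000155792) lies at chr8:119873717-120050913 on the plus strand of hg38, and 9.61% of its exon bases overlap AP005717.1 on the opposite strand. Whether the counting used strand is not given in the sources used here, so reads of an overlapping gene on the opposite strand cannot be told apart from its own.

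MTOR, the kinase itself, and RPTOR, the scaffold that recruits its substrates, overlapped between groups. MTOR (ENSG00000198793, chr1:11106535-11262507, minus strand) was at 16.2, 16.9 and 14.4 FPKM in the Control libraries, as compared with 15.5, 15.5 and 14.7 FPKM in the PRMT1 KD libraries (log2 difference -0.05, 95% interval -0.21 to 0.11, limma adjusted p = 0.735). RPTOR (ENSG00000141564, chr17:80544819-80966371, plus strand) was at 12.4, 11.9 and 10.4 FPKM against 11.7, 11.2 and 9.95 FPKM (log2 difference -0.07, 95% interval -0.27 to 0.13, limma adjusted p = 0.693). In both genes Control 3 was the lowest Control library and PRMT1 KD 3 the lowest PRMT1 KD library. MLST8, a small subunit shared by both mTOR complexes, was at 18.1, 17.8 and 17.01 FPKM in the Control and 16.3, 16.98 and 16.2 FPKM in the PRMT1 KD libraries. Its groups did not overlap, but by a narrow margin, between Control 3 and PRMT1 KD 2. The log2 difference of MLST8 (ENSG00000167965, chr16:2204248-2209416, plus strand) was -0.09 (95% interval -0.21 to 0.02, limma adjusted p = 0.337). AKT1S1 encodes PRAS40, an inhibitory subunit that AKT phosphorylates. AKT1S1 (ENSG00000204673, chr19:49869033-49878459, minus strand) was at 7.47, 7.08 and 6.99 FPKM in the Control and 7.34, 7.29 and 5.92 FPKM in the PRMT1 KD libraries (log2 difference -0.07, 95% interval -0.27 to 0.14, limma adjusted p = 0.718). PRMT1 KD 3 was the lowest AKT1S1 library, and the other PRMT1 KD values lay within the Control range.

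TSC1 and TSC2 form the complex that acts as the GTPase-activating protein of RHEB and so restrains mTORC1. TSC1 (ENSG00000165699, chr9:132891348-132946874, minus strand), the stabilising subunit, was at 5.71, 5.93 and 6.11 FPKM in the Control libraries, as compared with 6.49, 6.15 and 6.42 FPKM in the PRMT1 KD libraries. The groups did not overlap, and the log2 difference was 0.09 (95% interval -0.04 to 0.22, limma adjusted p = 0.428, exact permutation p = 0.1). TSC2 (ENSG00000103197, chr16:2047465-2089487, plus strand), the catalytic subunit, was at 7.08, 7.31 and 7.17 FPKM against 7.62, 7.26 and 6.87 FPKM. The PRMT1 KD values of TSC2 lay to either side of the Control values, with a log2 difference of 0.01 (95% interval -0.12 to 0.14, limma adjusted p = 0.946). After rounding, neither interval goes beyond 0.22 in size on the log2(FPKM + 1) scale, which understates the fold changes of low genes.

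The substrates gave differences of opposite sign, neither past the threshold. EIF4EBP1, the repressor that holds the cap-binding protein eIF4E, was at 122, 125 and 109.6 FPKM in the Control libraries, as compared with 115.8, 95.9 and 91.8 FPKM in the PRMT1 KD libraries. PRMT1 KD 1 lay above Control 3, so the groups overlapped. The PRMT1 KD mean was 85.2% of the Control mean (101 ± 12.8 against 119 ± 8.07, SD, n = 3 each), a log2 difference of -0.23 (95% interval -0.46 to -0.01, limma adjusted p = 0.238, exact permutation p = 0.2). EIF4EBP1 (ENSG00000187840) lies at chr8:38030341-38060365 on the plus strand, shares no exon bases with another gene and rests on 1481 to 2164 reads per library. RPS6KB1 (ENSG00000108443, chr17:59893046-59950564, plus strand), the S6 kinase that phosphorylates ribosomal protein S6, was at 7.90, 7.58 and 8.99 FPKM in the Control and 8.58, 8.79 and 9.13 FPKM in the PRMT1 KD libraries. Its log2 difference was 0.11 (95% interval -0.06 to 0.27, limma adjusted p = 0.458), and Control 3 lay among the PRMT1 KD values. The paralogs of the substrates had similar values in both groups. EIF4EBP2 had a mean of 21.9 ± 0.862 FPKM in the Control and 21.5 ± 0.831 FPKM in the PRMT1 KD libraries (SD, n = 3 each, log2 difference -0.02, limma adjusted p = 0.852), and RPS6KB2 had 7.66 ± 0.120 against 7.35 ± 0.364 FPKM (log2 difference -0.05, limma adjusted p = 0.64). EIF4EBP3 did not pass the filter, with 0.095 to 0.699 FPKM, and 73.4% of its exon bases are shared with the readthrough gene ANKHD1-EIF4EBP3.

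**Figure D2:**
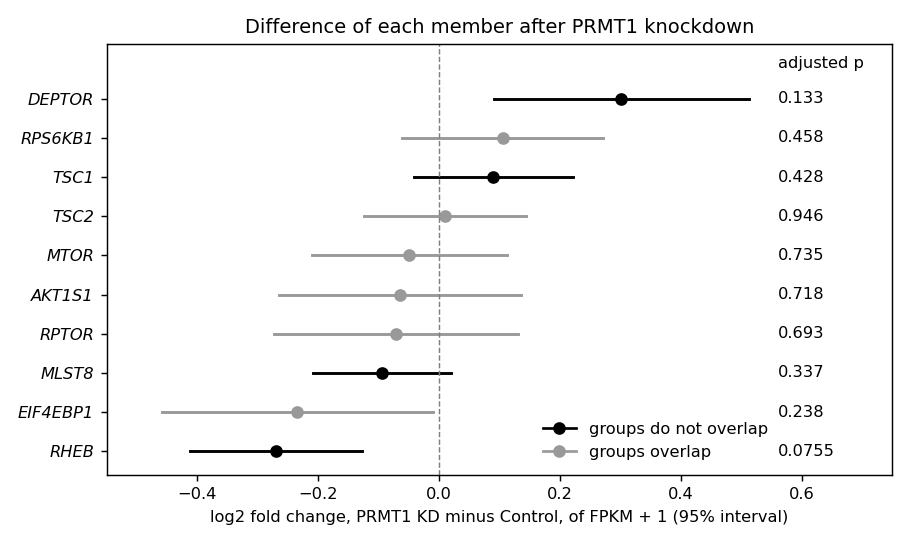
log2 fold change of each member, PRMT1 KD minus Control, of FPKM + 1 (x axis), as a point with its 95% interval from limma and the adjusted p at the right, in black where the groups do not overlap and in grey where they do. The intervals of RHEB and EIF4EBP1 lie below 0 and that of DEPTOR above 0, those of the other members cross 0, and the smallest adjusted p is 0.0755.

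The levels of the members differed more between genes than between groups. Compared per length on the FPKM scale, EIF4EBP1 was the highest in the Control libraries with a mean of 119 FPKM, followed by RHEB (22.9), MLST8 (17.7), MTOR (15.8) and RPTOR (11.6). Each of these lay apart from the next lower one in all Control libraries. RPS6KB1 (8.16), DEPTOR (7.70), TSC2 (7.19) and AKT1S1 (7.18) overlapped with their neighbours in this order, and TSC1 was the lowest at 5.91 FPKM, apart from AKT1S1. EIF4EBP1 mRNA was thus far above the mRNA of its kinase, while the subunits MTOR, RPTOR and MLST8 lay between 11.6 and 17.7 FPKM. The order depends on the length used, which in the deposited values is the union of all annotated exons, 19626 bases for TSC2 against 1073 for EIF4EBP1. Divided instead by the length of the transcript with the longest coding sequence, a choice made after seeing the data, the Control mean of TSC2 came to 22.9 FPKM and its place moved from 8 to 4. On that length MLST8 (44.0 FPKM) was above RHEB (39.0 FPKM) and DEPTOR was the lowest at 7.86 FPKM, while EIF4EBP1 was still the highest at 125 FPKM.

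Ratios of a pair of genes within a library do not move with the scaling between libraries, and 4 were compared. The ratio of the inhibitor DEPTOR to its target MTOR was 0.433, 0.438 and 0.603 in the Control libraries, as compared with 0.608, 0.686 and 0.615 in the PRMT1 KD libraries. These groups did not overlap, with Control 3 just below PRMT1 KD 1 (log2 difference 0.39, exact permutation p = 0.1, adjusted over the 4 ratios 0.267). EIF4EBP1 relative to EIF4E, the cap-binding protein it holds, was 28.1 ± 3.21 in the Control and 22.8 ± 3.39 in the PRMT1 KD libraries (SD, n = 3 each, log2 difference -0.30, exact permutation p = 0.2, adjusted 0.267). The size of this ratio depends on the lengths used, 1073 bases for EIF4EBP1 against 14067 for EIF4E. In reads, the Control libraries held 1943 to 2164 for EIF4EBP1 against 930 to 1043 for EIF4E. A processed pseudogene of EIF4E, EIF4EP2, had 129 to 188 reads per library. RPTOR relative to RICTOR, the scaffold of mTORC2, was 3.38 ± 0.836 against 2.68 ± 0.496 (log2 difference -0.33, exact permutation p = 0.4, adjusted 0.4). TSC1 relative to TSC2 was 0.822 ± 0.0250 against 0.878 ± 0.0491 (log2 difference 0.09, exact permutation p = 0.2, adjusted 0.267). On leaving out 1 library, RPTOR relative to RICTOR moved between -0.50 (without Control 3) and -0.15 (without Control 2) and was -0.16 without PRMT1 KD 3. Without PRMT1 KD 3, EIF4EBP1 relative to EIF4E came to -0.19 and TSC1 relative to TSC2 to 0.05, and DEPTOR relative to MTOR ran from 0.31 to 0.55 over the libraries left out. The groups overlapped in all ratios but DEPTOR to MTOR, and none of the 4 could pass 0.05 in this design.

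Among the other genes of the pathway, RRAGD was the only one of 68 tested (of 77 listed) to pass the threshold, beside the 2.05% of all genes. At that share, a single call in a list of this length is not unusual. RRAGD is 1 of the 4 Rag GTPases, which pair as RagA or RagB with RagC or RagD to carry the amino acid signal to mTORC1. Its level was 15.9, 16.8 and 16.0 FPKM in the Control libraries, as compared with 21.9, 22.0 and 22.9 FPKM in the PRMT1 KD libraries. All PRMT1 KD libraries were above all Control libraries, and the PRMT1 KD mean was 137% of the Control mean. It rose by 0.43 on the log2 scale (SE 0.0462, 95% interval 0.32 to 0.54, limma adjusted p = 0.0154), with 1338 to 1835 reads per library. The call was lost on leaving out any 1 library other than Control 3, with limma adjusted p from 0.0522 to 0.109, while the log2 change stayed between 0.41 and 0.45. RRAGD (ENSG00000025039, chr6:89364636-89412270, minus strand) shares no exon bases with another gene, and the 7 letters TACATGG of si-PRMT1-2 occur in both of its annotated 3′ UTRs. The other Rag genes did not pass, at log2 differences of -0.16 for RRAGA (limma adjusted p = 0.275), -0.07 for RRAGB and 0.03 for RRAGC. The 5 Ragulator genes LAMTOR1 to LAMTOR5, whose products anchor the Rag GTPases to the lysosome, had log2 differences of -0.18, -0.14, -0.13, -0.10 and -0.07, none past the threshold and all with overlapping groups. SLC38A9, the arginine transporter that signals to the Rag GTPases, had a log2 difference of 0.12.

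**Figure D3:**
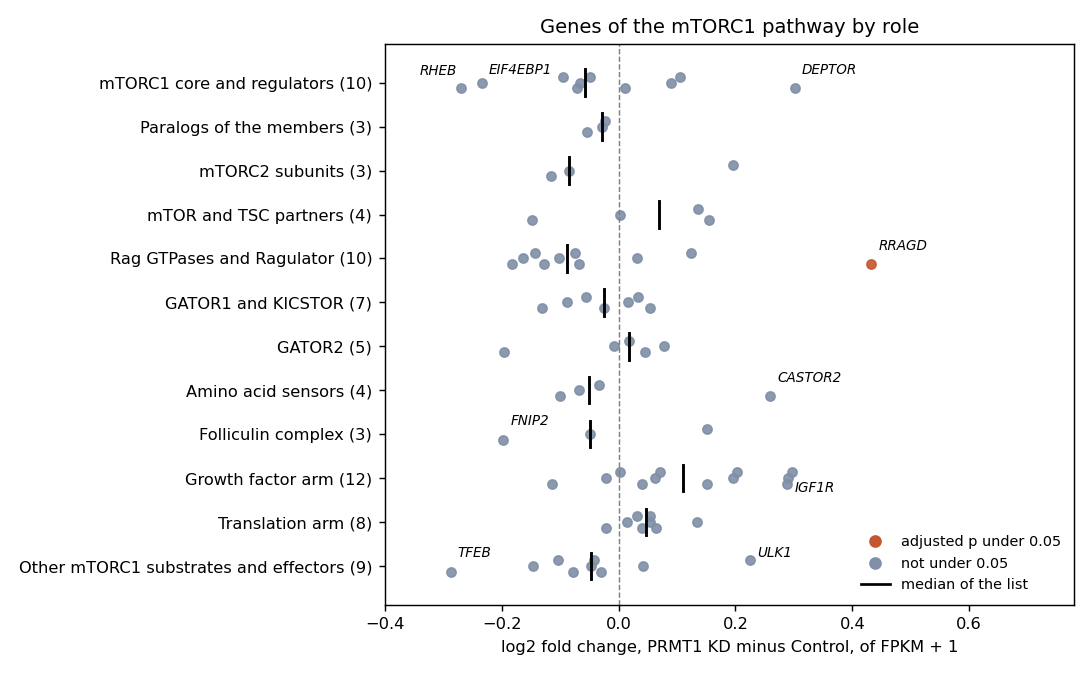
log2 fold change, PRMT1 KD minus Control, of FPKM + 1 (x axis) for each tested gene (point) of the mTORC1 members and of the other pathway lists, with the number of tested genes in parentheses and the median of each list (bar). RRAGD at 0.43 is the only gene with an adjusted p under 0.05.

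Upstream of the Rag GTPases, the amino acid sensing genes had small differences and none passed the threshold. In GATOR1, which switches off RagA and RagB, and KICSTOR, which places it on the lysosome, 3 of 7 genes were higher and 4 lower (median log2 difference -0.02), from KPTN at -0.13 (-0.02 without PRMT1 KD 3) to NPRL3 at 0.05 (0.02 without PRMT1 KD 1). In GATOR2, which acts against GATOR1, 3 of 5 were higher and 2 lower (median 0.02), from WDR24 at -0.20 (limma adjusted p = 0.263) to SEH1L at 0.08. WDR24 shares 35.7% of its exon bases with Z92544.2 on the opposite strand, and strand use in the counting is not given. Of the sensors, SESN2, a leucine sensor induced by stress, had 57.7 ± 3.04 FPKM in the Control and 54.97 ± 2.84 FPKM in the PRMT1 KD libraries (SD, n = 3 each, log2 difference -0.07). CASTOR2, a subunit of the arginine sensor, had 5.34 ± 0.704 against 6.62 ± 1.23 FPKM on 102 to 157 reads per library (log2 difference 0.26, limma adjusted p = 0.337), and the difference was 0.13 without PRMT1 KD 2 and 0.16 without Control 3. SESN3 was listed at 0 in all libraries and CASTOR1 was at or under 0.2 FPKM, so neither was tested. In the folliculin complex, which acts on RagC and RagD, FNIP2 was at 7.36, 7.38 and 7.96 FPKM in the Control and 6.35, 6.70 and 6.35 FPKM in the PRMT1 KD libraries. The FNIP2 groups did not overlap, beside 25.9% of all tested genes (log2 difference -0.20, limma adjusted p = 0.126). FNIP1 had a log2 difference of 0.15 and FLCN of -0.05.

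In the growth factor arm 10 of 12 tested genes were higher and 2 lower, none past the threshold, with a median log2 difference of 0.11 beside 0.01 over all tested genes. IGF1R, the receptor of insulin-like growth factor 1 and a known myeloma survival receptor, had the smallest p of this arm. It was at 5.54, 5.66 and 5.27 FPKM in the Control and 6.92, 7.21 and 6.67 FPKM in the PRMT1 KD libraries, without overlap (log2 difference 0.29, limma adjusted p = 0.0594). Groups without overlap were found in 25.9% of all tested genes. With voom, and with genes of a mean of at least 5 FPKM only, IGF1R passed the threshold, beside 6.82% and 6.13% of the genes tested. PIK3CA, PIK3CD and PIK3CB, the catalytic subunits of PI3 kinase, had log2 differences of 0.30, 0.29 and 0.20 (limma adjusted p = 0.218, 0.225 and 0.109), and PIK3CA passed with voom. The groups overlapped in PIK3CA but not in PIK3CD and PIK3CB. In PIK3CA, 35.8% of the exon bases overlap KCNMB3 on the opposite strand, and strand use in the counting is not given. AKT1 and AKT2 had log2 differences of 0.00 and -0.11, and PIK3R2, IRS2 and DDIT4L were under the filter.

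Downstream of the members, 0 of 17 tested genes passed the threshold, beside 2.05% of all tested genes, a share at which few or none of so short a list would pass. In the translation arm 7 of 8 genes were higher (median log2 difference 0.05), with EIF4B, a helicase cofactor phosphorylated by S6 kinase, the highest at 0.13 (limma adjusted p = 0.151). EIF4E itself had 4.25 ± 0.210 FPKM in the Control and 4.44 ± 0.244 FPKM in the PRMT1 KD libraries (SD, n = 3 each, log2 difference 0.05). Among the other substrates and effectors 2 of 9 were higher and 7 lower (median -0.05). ULK1, the autophagy kinase that mTORC1 inhibits, was at 7.10, 7.16 and 6.71 FPKM in the Control and 9.24, 8.09 and 7.74 FPKM in the PRMT1 KD libraries (log2 difference 0.23, limma adjusted p = 0.156). TFEB, the lysosomal transcription factor that mTORC1 keeps out of the nucleus, was at 14.8, 15.1 and 13.7 FPKM against 13.1, 12.03 and 10.1 FPKM (log2 difference -0.29, limma adjusted p = 0.153). The groups did not overlap in either gene, beside 25.9% of all tested genes. TFEB passed the threshold with voom, where 6.82% of all genes passed. The log2 difference of ULK1 was 0.16 without PRMT1 KD 1, and that of TFEB was -0.19 without PRMT1 KD 3. HIF1A was under the filter.

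Leaving out libraries and changing the processing gave the members a range of values but few calls. Over 14 alternatives the log2 difference of RHEB lay between -0.32 and -0.23 and its adjusted p between 0.0241 and 0.232, under 0.05 in 2 of them. DEPTOR lay between 0.24 and 0.38 (adjusted p 0.0624 to 0.357) and EIF4EBP1 between -0.33 and -0.17 (adjusted p 0.0973 to 0.497), neither under 0.05 in any. MTOR lay between -0.11 (without Control 3) and -0.0024 (without Control 2), and RPTOR between -0.14 (without Control 3) and -0.0085 (without PRMT1 KD 3), so the size of both differences rested on single libraries. MLST8 lay between -0.12 and -0.08, TSC1 between 0.07 and 0.12, and RPS6KB1 between 0.06 (without Control 2) and 0.17 (without Control 3). TSC2 and AKT1S1 took both signs.

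**Figure D4:**
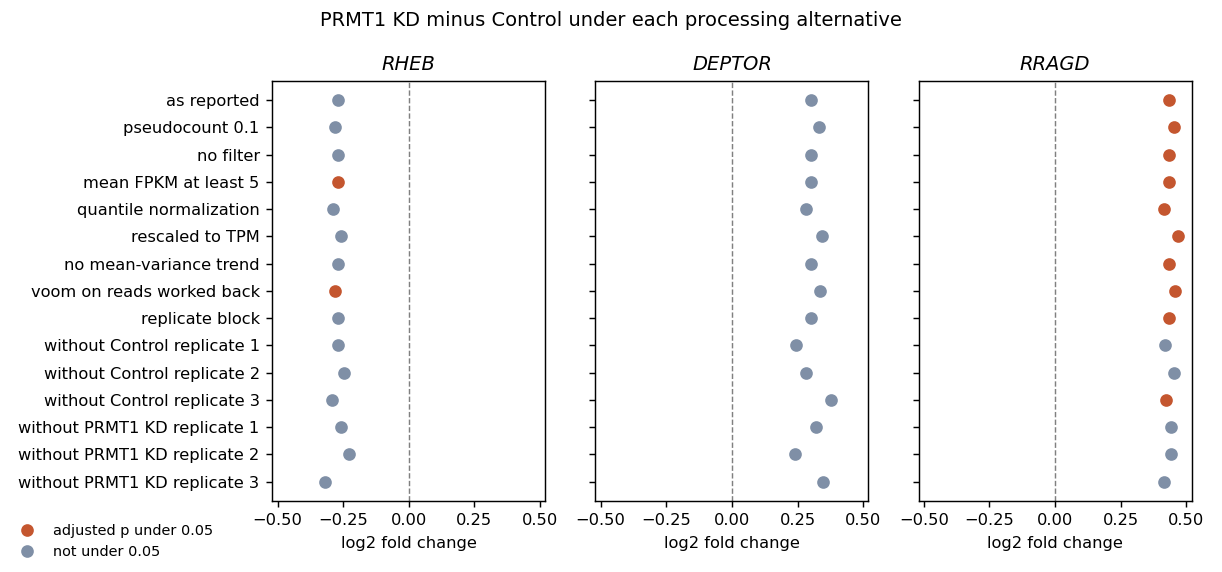
log2 fold change, PRMT1 KD minus Control (x axis), of RHEB, DEPTOR and RRAGD (panels) in the reported fit and under 14 alternatives (y axis), in orange where the adjusted p was under 0.05; the values are of FPKM + 1 except where the setting names another scale. RHEB stays below 0 and passes under 2 alternatives, DEPTOR stays above 0 and passes under none, and RRAGD stays above 0.41 and does not pass without any 1 library other than Control 3.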

How the data were processed

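Total RNA of 3 Control and 3 PRMT1 KD libraries of MM.1S cells had been sequenced on an Illumina protocol. The authors deposited FPKM values for 58735 genes. The submitters' processing notes name hg38 and featureCounts 1.5.0-p3. The aligner, strand use and treatment of reads that overlap several genes are not given in the sources used here. FPKM times gene length gave whole reads for 100% of values (tolerance 0.1 read), and the values already include a median-of-ratios scaling between libraries. All 58735 identifiers matched GENCODE 29, with the same start and end.

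log2(FPKM + 1) was tested by the moderated linear model of limma 3.58.1, under R 4.3.3, allowing the variance to follow the mean. Tests were two-sided, and p was adjusted by Benjamini-Hochberg over the 13585 genes whose mean was at least 1 FPKM (threshold 0.05). Fold changes on this scale understate those of low genes. Single values were compared with exact two-sided permutation tests. Named genes were PRMT1, the members, their paralogs, the genes of the 4 ratios and, per pathway list, genes past the threshold and the 2 highest and 2 lowest differences; genes named beyond this were chosen after their values were seen. Members and lists were chosen with earlier results of these data known. The siRNA sequences are those of the study's supplement. Some genes of the lists are not reported here by name.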

Additional observations from a re-analysis of the deposited data

How the results depend on the processing

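The count of members past the threshold was 0 in the reported fit and under all alternatives except 2, a minimum mean of 5 FPKM and voom, which each gave 1 (RHEB). The count over all genes was 279. It was 35 with no filter on low values, 473 with a minimum mean of 5 FPKM, 180 after rescaling to TPM, 43 without the mean-variance trend, 927 with voom, and 13 to 95 on leaving out 1 library (13 without Control replicate 1, 95 without Control replicate 3). The share of calls that were higher was 51.97%, 62.2% after rescaling to TPM, 44.9% with quantile normalization, 42.9% with no filter, 34.9% without the trend and 26.7% to 47.4% on leaving out 1 library, so its majority was not stable. RRAGD kept its call under the 8 alternatives that used all libraries. In the fit that took the replicate number as block, 204 genes and 0 members passed and no call on a named gene changed. Deviations of same-numbered libraries correlated by 0.02, 0.0631 and 0.101, so the numbers were not taken to pair the libraries, although each of the 6 libraries correlated best with its own number. Differences near 0 changed sign. With quantile normalization TSC2 came to -0.0059 and TELO2 to -0.015, and after rescaling to TPM SEC13 came to 0.012. On leaving out 1 library the log2 differences ran from -0.022 to 0.044 for TSC2, -0.11 to 0.023 for AKT1S1, -0.16 to 0.074 for RHEBL1, -0.052 to 0.0055 for EIF4EBP2, -0.065 to 0.10 for TELO2, -0.035 to 0.018 for SEC13, -0.060 to 0.10 for MIOS, -0.079 to 0.025 for BMT2, -0.082 to 0.072 for DDIT4, -0.076 to 0.022 for EIF4G1, -0.047 to 0.081 for RPS6 and -0.036 to 0.089 for MITF. The cause of these changes was not tested. With 3 libraries a group, the 95% intervals of the members other than RHEB, DEPTOR and EIF4EBP1 included 0.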

Other observations

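EIF4A1, the RNA helicase of the cap-binding complex, was listed at a mean of 3.25 ± 0.129 FPKM in the Control libraries (SD, n = 3), beside 85.5 ± 5.67 FPKM for its partner EIF4G1 and 159 ± 2.68 FPKM for EIF4B. Of its exon bases, 48.6% are shared with other annotated genes, and a pseudogene, EIF4A1P10, had 114 to 131 reads in the Control libraries. HIF1A was listed at a mean of 0.0393 ± 0.0176 FPKM and IRS2 at 0 in all libraries. Genes of the tested set whose 3′ UTR holds the 7 letters of si-PRMT1-1 had a median log2 difference of 0.0599, and genes without them -0.00128. For si-PRMT1-2 these medians were 0.0313 and 0.011, and for si-PRMT1-3 they were 0.0227 and 0.011. The genes with and without the letters were not matched for the length or number of their 3′ UTRs. The cause of these differences was not tested.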
